A study of Mus musculus with 4 samples.

Results

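RAD21 peaks that overlapped no CTCF peak were examined in mouse gastruloids, which are stem-cell aggregates that elongate along a head-to-tail axis in a dish, fixed 96 h after aggregation. RAD21 is a subunit of the cohesin ring, and CTCF is the zinc-finger protein that halts cohesin on chromatin. Peaks came from ChIPmentation, a chromatin immunoprecipitation in which Tn5 transposase adds the sequencing adapters while the chromatin is on the antibody beads. The RAD21 list of InsCBS5-10 had 18292 peaks on chromosomes 1 to 19 without chromosome 11, and 834 of them overlapped no peak by 1 bp or more in any of the 3 CTCF lists. A second RAD21 list, which the authors named wild type at 96 h, had 55240 peaks, and 24044 of them overlapped no CTCF peak. In each list, 337 of these peaks overlapped one of the other list that was also without CTCF. The members were thus chosen by the measured peak calls of RAD21 and CTCF.

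The lists hold 3 genotypes. InsCBS5-10 has the genotype HoxB Del/Del(i9-13), with HoxB deleted on 1 allele and the i9-13 interval deleted on the other, together with an insertion of CTCF binding sites, Ins(CBS5-10). DelCBS7-10 carries all of these and a further deletion, Del(CBS7-10), so both mutants share the HoxB deletion, the i9-13 deletion and the insertion. Wild type has none of these. The CTCF lists (Active Motif antibody) had 31905 peaks in InsCBS5-10, 33915 in DelCBS7-10 and 44362 in wild type. RAD21 (Abcam antibody) was mapped in InsCBS5-10. The RAD21 list named wild type has no sample record in the sources used here, so its genotype and stage rest on its name, and whether it pools libraries is not stated. Gastruloids were pooled before fixation, and there was 1 list per group, so no difference below has a replicate check and no test was made. Intervals of shares are exact Clopper-Pearson 95% intervals. Those of differences between shares combine the intervals of both shares and are not exact. Those of medians, used in the closing checks, come from ranked values. All cover counting error only. Depth is unknown from peak lists, and absence from a list means only that no peak was called. The edited HoxB locus lies on chromosome 11, which is not part of the peaks described.

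Cohesin is loaded onto chromatin, extrudes a DNA loop and stops where it meets CTCF in the right orientation, so most cohesin peaks of vertebrate cells lie on CTCF sites. Cohesin is also known from active promoters, enhancers and tRNA genes without CTCF. In embryonic stem cells and their derivatives such sites are usually weaker than those with CTCF.

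In the wild-type list, 27.6% of members lay within 1 kb of a protein-coding start, against 9.52% of peaks with CTCF. Most members, 17416 of 24044, lay further away. Sequence was at hand only for promoters, and the stretches that some of the promoter peaks cover are shown first. The sequences are RefSeq promoters of GRCm38.p6, each 300 bases, 250 before to 50 after the start, written 5′ to 3′ along the gene, with capitals marking matches to a set of 12 short motifs searched on both strands. Ndufb5, a subunit of respiratory complex I (chr3:32736813-32737112, plus strand), and Nat8f3, an N-acetyltransferase gene (chr6:85765695-85765994, minus strand), had a CTCF-free peak in both RAD21 lists. Ddx17, an RNA helicase (chr15:79546692-79546991, minus strand), and Ddost, a subunit of the oligosaccharyltransferase (chr4:138304488-138304787, plus strand), had some of the strongest promoter peaks of the wild-type list. H2ac6, a histone H2A gene (chr13:23683910-23684209, minus strand), and Rps27l, a ribosomal protein gene (chr9:66945836-66946135, plus strand), stand for 2 gene groups taken up below.
Ndufb5: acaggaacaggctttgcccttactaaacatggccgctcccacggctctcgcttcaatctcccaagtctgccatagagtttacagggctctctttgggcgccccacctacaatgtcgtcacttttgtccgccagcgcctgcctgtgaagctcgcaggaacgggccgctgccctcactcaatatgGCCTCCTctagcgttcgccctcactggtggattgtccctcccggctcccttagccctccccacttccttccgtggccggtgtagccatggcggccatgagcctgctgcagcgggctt
Nat8f3: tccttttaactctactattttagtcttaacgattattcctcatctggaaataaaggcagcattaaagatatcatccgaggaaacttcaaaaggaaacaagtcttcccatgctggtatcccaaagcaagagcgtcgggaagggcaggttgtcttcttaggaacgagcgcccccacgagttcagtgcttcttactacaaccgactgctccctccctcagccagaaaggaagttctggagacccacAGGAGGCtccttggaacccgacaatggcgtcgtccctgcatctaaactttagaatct
Ddx17: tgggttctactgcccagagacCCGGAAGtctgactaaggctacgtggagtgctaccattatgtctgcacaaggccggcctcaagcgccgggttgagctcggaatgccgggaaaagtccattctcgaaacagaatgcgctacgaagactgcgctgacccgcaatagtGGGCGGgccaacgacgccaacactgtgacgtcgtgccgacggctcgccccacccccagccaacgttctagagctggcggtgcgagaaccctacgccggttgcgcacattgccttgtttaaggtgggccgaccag
Ddost: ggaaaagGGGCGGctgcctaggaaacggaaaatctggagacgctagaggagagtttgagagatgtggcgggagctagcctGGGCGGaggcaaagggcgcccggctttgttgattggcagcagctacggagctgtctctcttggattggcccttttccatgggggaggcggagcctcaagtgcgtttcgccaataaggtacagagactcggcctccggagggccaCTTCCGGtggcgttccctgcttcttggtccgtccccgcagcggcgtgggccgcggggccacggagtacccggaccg
H2ac6: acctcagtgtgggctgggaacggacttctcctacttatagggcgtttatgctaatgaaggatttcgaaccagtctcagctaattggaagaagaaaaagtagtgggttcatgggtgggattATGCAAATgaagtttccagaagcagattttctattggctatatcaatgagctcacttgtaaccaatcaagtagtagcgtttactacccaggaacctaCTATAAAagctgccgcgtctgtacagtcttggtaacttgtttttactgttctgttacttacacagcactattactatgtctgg
Rps27l: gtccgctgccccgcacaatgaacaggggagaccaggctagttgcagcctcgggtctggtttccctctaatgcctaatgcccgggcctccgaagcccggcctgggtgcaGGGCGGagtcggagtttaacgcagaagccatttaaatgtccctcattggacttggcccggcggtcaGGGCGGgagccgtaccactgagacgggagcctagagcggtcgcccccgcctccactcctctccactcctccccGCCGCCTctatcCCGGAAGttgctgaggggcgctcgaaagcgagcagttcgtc
In Ndufb5 and Nat8f3 the capitals are the CTCF core letters AGGNGGC, although no CTCF list had a peak there: the nearest CTCF peak lay 30.1 kb away at Ndufb5 and 44.3 kb away at Nat8f3. In Ddx17 and Ddost they are the ETS letters CCGGAAG and the SP/KLF letters GGGCGG. H2ac6 has the octamer ATTTGCAT, a known element of histone promoters, and a match to the CDX letters TTTATNG. Both lie on the opposite strand, the CDX match as CTATAAA, and CDX binding was not measured. Rps27l has the CTCF core, SP/KLF and ETS letters. Counted from the start, with negative positions upstream, the wild-type summit lay at -132 bp in Ndufb5, -112 in Nat8f3, 10 in Ddx17, -55 in Ddost, -76 in H2ac6 and -108 in Rps27l.

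Peaks without CTCF were 4.56% of the InsCBS5-10 RAD21 list (interval 4.26% to 4.87%) and 43.5% of the wild-type list (43.1% to 43.9%). The lists hold 18292 peaks in InsCBS5-10 and 55240 in wild type, with a median −log10 q of 12 in InsCBS5-10 and 7.29 in wild type. Cut to its 18292 strongest peaks by −log10 q, as many as InsCBS5-10 had, the wild-type list held 1012 peaks without CTCF, or 5.53% (5.21% to 5.87%). The share was spread over the genome: by chromosome it ran from 2.8% (chromosome 19) to 6.51% (chromosome 12) in InsCBS5-10, and from 38.9% (chromosome 19) to 49.1% (chromosome 13) in wild type. The CTCF lists used mattered in the mutant. Set against the InsCBS5-10 CTCF list alone, 14.9% of the InsCBS5-10 RAD21 peaks were without CTCF. With the wild-type CTCF list alone, the wild-type share was 45.8%.

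Members were weak peaks. Fold enrichment, the authors' ratio of signal at the summit to local background within a list, had a median of 3.69 (quartiles 3.26 and 4.3) for the CTCF-free peaks of InsCBS5-10 and 6.28 (4.73 and 8.29) for its peaks with CTCF. In wild type the medians were 3.31 (2.86 and 3.92) without CTCF and 5.74 (4.1 and 7.9) with CTCF. A −log10 q of 5 or more was reached by 18.9% of the CTCF-free peaks of InsCBS5-10 and 82.2% of those with CTCF, and by 33.4% and 83.5% in wild type. The share without CTCF fell with strength. Each list was cut into 10 strength classes (deciles) by fold enrichment. In decile 1, the weakest, of the InsCBS5-10 list, with fold enrichment of 1.38 to 3.66, 22.3% of peaks had no CTCF (20.4% to 24.3%), and in decile 10, above 10.2, it was 1 peak of 1830 (0.0546%). In wild type 79.6% of decile 1 (78.5% to 80.6%) and 0.38% of decile 10 (0.235% to 0.581%, 21 of 5524 peaks) had none.

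**Figure D1:**
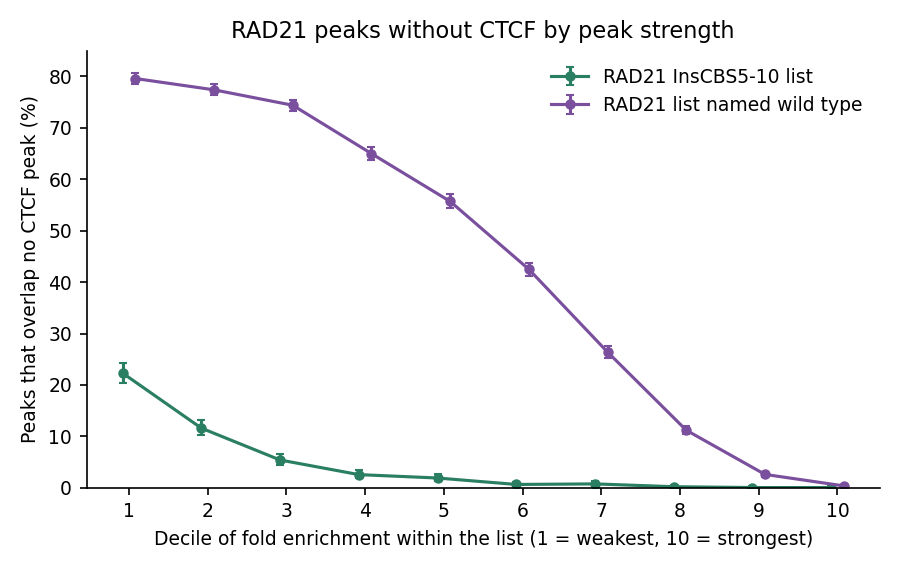
Percentage of RAD21 peaks that overlap no CTCF peak (y axis) in each decile of fold enrichment within the list (x axis, weakest at the left), with exact 95% intervals as bars, for the InsCBS5-10 list and the list named wild type. Both lines fall towards decile 10, with InsCBS5-10 starting at 22.3% and wild type at 79.6%.

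The strongest single members show how far the tail reached. In InsCBS5-10 the highest fold enrichment, 12 with a −log10 q of 29.1, belonged to a 303 bp peak at chr14:19277968-19278270 (mm10), 190 kb from the nearest protein-coding gene and 24.3 kb from a CTCF peak; it was chosen after its values were seen, and it had no counterpart in the wild-type list. The next, at chr1:103799422-103799734, had 9.92 and lay 969 kb from a gene and 29 kb from CTCF, and it was also in the wild-type list, where it had 7.75. In wild type the highest member had 11.4 with a −log10 q of 57.5, at chr1:37931734-37932354, 14.7 kb from a gene, and it was found in InsCBS5-10 too.

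Members were also narrow. The median width was 214 bp (187 and 259) without CTCF and 307 bp (239 and 391) with CTCF in InsCBS5-10, and 337 bp (242 and 494) without and 623 bp (422 and 813) with CTCF in wild type. Width rises with strength, so the classes were set side by side within each decile of fold enrichment. A wide peak also meets a CTCF interval more easily. Deciles cannot remove this, because overlap by 1 bp decides the class. In decile 1 of InsCBS5-10 the medians were 208 bp without and 231 bp with CTCF, and in decile 3 216 bp without and 244 bp with. In wild type they were 260 bp without and 274 bp with CTCF in decile 1, and 598 bp without and 668 bp with in decile 8. The CTCF-free median was the lower one in all 10 deciles of each list, although deciles 6 to 10 of InsCBS5-10 held only 12, 14, 4, 1 and 1 members. More than 1 summit in the interval was recorded for 0.48% of CTCF-free peaks and 3.65% of peaks with CTCF in InsCBS5-10, and for 14.1% without and 18.8% with in wild type.

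**Figure D2:**
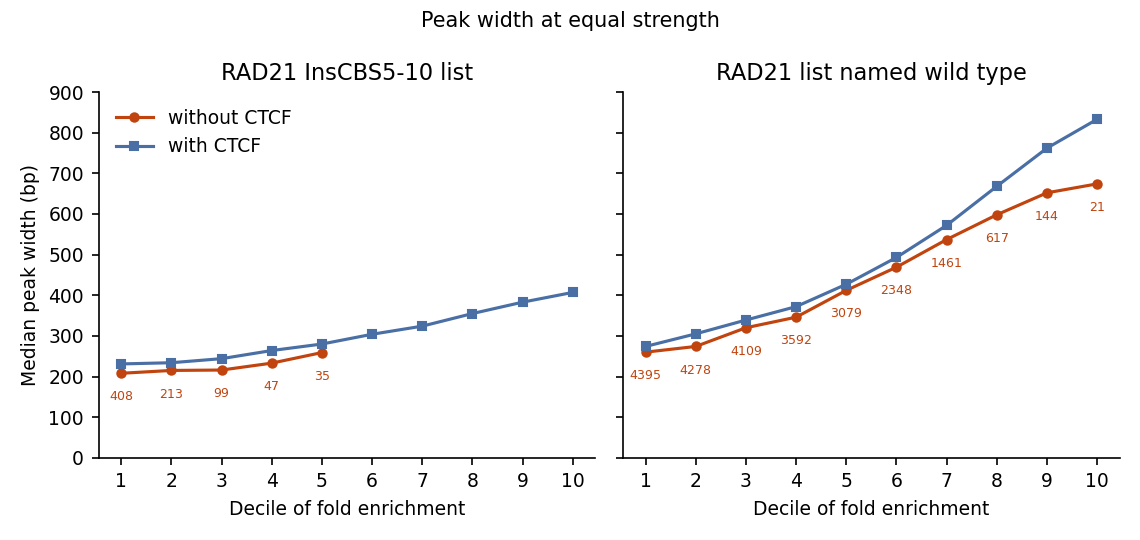
Median peak width in bp (y axis) of RAD21 peaks without CTCF (circles) and with CTCF (squares) in each decile of fold enrichment (x axis), in the InsCBS5-10 list (left) and the list named wild type (right); small numbers give the CTCF-free peaks per point, and points with fewer than 20 are not drawn. The circles lie under the squares at each drawn point, at 260 against 274 bp in decile 1 of wild type.

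Few members sat at the edge of the rule. A gap of less than 50 bp to the nearest CTCF interval was found for 15 members of InsCBS5-10 (median fold enrichment 3.25) and 88 of wild type (3.12). Just inside the other class, an overlap of 1 to 50 bp was found for 26 peaks of InsCBS5-10 (3.41) and 130 of wild type (2.97). The median gap to the nearest CTCF peak was 10120 bp in InsCBS5-10 and 12799 bp in wild type. A CTCF peak within 500 bp was present for 111 members (13.3%) in InsCBS5-10, 1031 (4.29%) in wild type, and, of the 337 called without CTCF in both, 6 (1.78%) by their InsCBS5-10 interval and 9 (2.67%) by their wild-type interval.

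CTCF-free peaks were found again in the other RAD21 list far less often than peaks with CTCF. Of the 834 members of InsCBS5-10, 382 (45.8%, 42.4% to 49.3%) overlapped a wild-type RAD21 peak, against 16880 of 17458 (96.7%, 96.4% to 96.9%) with CTCF. For 45 of the 382 the overlapping wild-type peak did have CTCF. Of the 24044 wild-type members, 342 (1.42%, 1.28% to 1.58%) overlapped an InsCBS5-10 peak, against 16767 of 31196 (53.7%, 53.2% to 54.3%) with CTCF. The InsCBS5-10 list held only 834 peaks without CTCF, against 17458 with CTCF, so the share of wild-type members could only be low. Among the strongest 18292 wild-type peaks, 131 of 1012 members (12.9%) overlapped an InsCBS5-10 peak, against 14220 of 17280 (82.3%) with CTCF. Strength moved with recovery in both classes and members were found less often than peaks with CTCF in most deciles. The exceptions were deciles 7, 8 and 9 of InsCBS5-10, where all 14, 4 and 1 members were found. In decile 1 of InsCBS5-10, 30.6% of members and 79% of peaks with CTCF were found in wild type, and in decile 4 85.1% of members and 98.4% of those with CTCF. In decile 8 of wild type, 9.89% of members and 64.8% of peaks with CTCF were found in InsCBS5-10, and in decile 9 31.2% of members and 86.6% of those with CTCF. Equal deciles are not matched in width, which was lower for members throughout. Recovery of InsCBS5-10 members was 74.4% where the InsCBS5-10 CTCF list alone defined them, 77.2% among RAD21 peaks at −log10 q 5 and above and 20.3% against the strongest 18292 wild-type peaks. That of wild-type members was 2.85% where only CTCF peaks at a −log10 q of 5 and above counted.

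**Figure D3:**
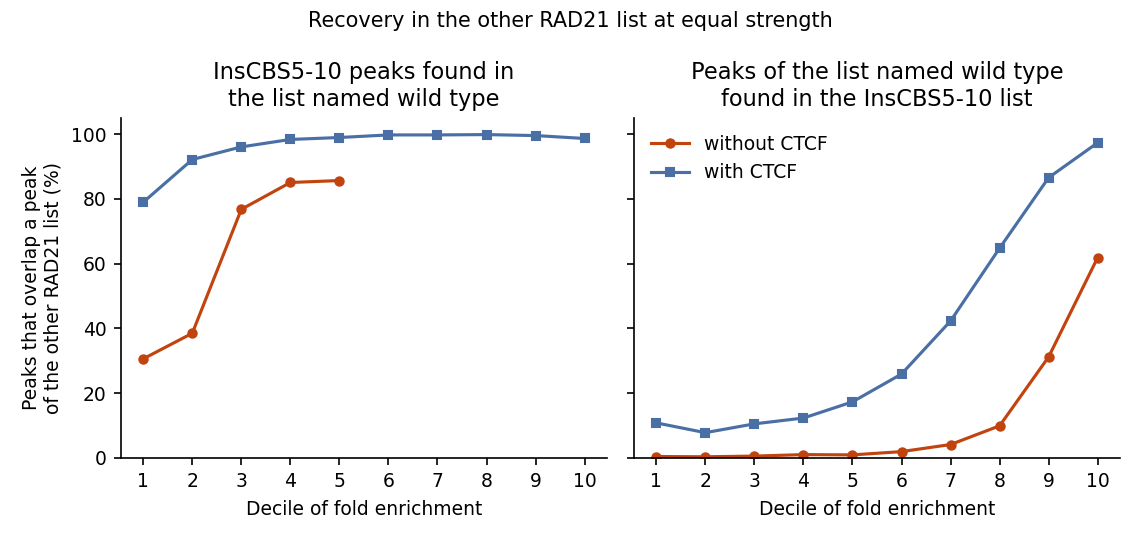
Percentage of RAD21 peaks that overlap a peak of the other RAD21 list (y axis) by decile of fold enrichment in their own list (x axis), without CTCF (circles) and with CTCF (squares), for InsCBS5-10 peaks looked up in the list named wild type (left) and the reverse (right); points with fewer than 20 CTCF-free peaks are not drawn. Circles lie below squares at each drawn point, at 30.6% against 79% in decile 1 on the left and 9.89% against 64.8% in decile 8 on the right.

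The 337 sites called without CTCF in both lists were weak peaks in InsCBS5-10 and lay above the middle of the wild-type list. Their median fold enrichment was 4.27 in InsCBS5-10 (percentile 19.9 of all RAD21 peaks there) and 4.99 in wild type (percentile 62.4). Their summits were 38 bp apart between the lists (quartiles 21 and 90), against 22 bp (10 and 42) for 16879 sites with CTCF in both. They lay mostly away from starts: 15 (4.45%) had their InsCBS5-10 summit within 1 kb of a protein-coding start, 150 (44.5%) lay inside a gene and 56 (16.6%) lay over 100 kb from one.

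Shared sites near genes were ranked by the lower of their 2 within-list percentiles of fold enrichment, and the first 10 lay beside or inside 10 genes. Beside Eri1, a 3′ exonuclease that trims histone mRNA ends, a 222 bp peak at chr8:35462195-35462416 had 8.06-fold enrichment in InsCBS5-10 and 6.66 in wild type, 2.98 kb from the gene and 6.46 kb from CTCF. Inside Tbck, the site at chr3:132701369-132701639 had 7.7 in InsCBS5-10 and 7.35 in wild type. Inside Alpk1, an alpha-kinase of innate immunity, chr3:127759279-127759630 had 7.27 in InsCBS5-10 and 7.05 in wild type, 3.48 kb from CTCF. The other strong ones lay inside Fbxl7 (7.48 in InsCBS5-10, 6 in wild type), Fcgr1, the high-affinity IgG receptor (7.23 and 7.54 in the same order), Vps13b, a lipid transfer protein (7.14 and 6.91), Agap1, an Arf GTPase-activating protein (7.02 and 8.22), Reln, the reelin glycoprotein of neuronal migration (6.54 and 5.46), Fam168a (6.34 and 4.9) and C9orf72 (6.28 and 7.74). All 10 shared sites were called without CTCF in both lists, and the distance to the nearest CTCF interval ran from 2.39 kb at Fcgr1 to 87.2 kb at Vps13b. Among the 10 strongest gene-linked members of InsCBS5-10, 1 was not in the wild-type list, the peak inside Cds1, a CDP-diacylglycerol synthase, at 6.42.

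Far from genes, 3 shared sites stood out by strength. Beside the one on chromosome 1 given above, chr18:28725235-28725650 had 7.47 in InsCBS5-10 and 6.44 in wild type, 1540 kb from the nearest protein-coding gene. The site at chr10:30419398-30419777 had 7.19 in InsCBS5-10 and 8.72 in wild type with a −log10 q of 74.3, 115 kb from a gene and 97.5 kb from CTCF. By its width in InsCBS5-10, the widest shared member was that at chr3:21935558-21936436, which spanned 879 bp in InsCBS5-10 and 1588 bp in wild type. By the same measure the next were weak peaks inside the zinc-finger genes Zfp936 (853 bp and 3.27-fold in InsCBS5-10, 259 bp and 2.87-fold in wild type) and Zfp960 (653 bp and 3.76-fold in InsCBS5-10, 357 bp and 3.71-fold in wild type), so their order by width did not hold in wild type, where the peaks at Ube3c (1688 bp) and Rbl1 (1590 bp) were wider than all 3. Both zinc-finger genes belong to large families of similar genes; how reads of such copies were placed is not stated.

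The 452 members of InsCBS5-10 with no wild-type RAD21 peak were the weakest class, with a median fold enrichment of 3.48 and a median width of 210 bp. A −log10 q of 5 or more was reached by 18 of them (3.98%), against 134 of the 337 shared sites (39.8%) in the same list. Their promoter share was 2.21% (1.07% to 4.03%), and 21.7% (18% to 25.8%) lay over 100 kb from a protein-coding gene.

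Distance to genes separated members from other RAD21 peaks in opposite ways in the 2 lists. In InsCBS5-10, 31 of 834 members (3.72%, 2.54% to 5.23%) had their summit within 1 kb of a protein-coding start, against 937 of 17458 peaks with CTCF (5.37%, 5.04% to 5.71%). In wild type, 6628 of 24044 members (27.6%, 27% to 28.1%) did, against 2971 of 31196 (9.52%, 9.2% to 9.85%) with CTCF. With the CTCF list of the same genotype alone, the InsCBS5-10 difference was 0.226 percentage points in the other direction, so its sign rests on the CTCF lists used. The median distance to a start was 42439 bp without and 23879 bp with CTCF in InsCBS5-10, and 17907 bp without and 20773 bp with CTCF in wild type. Far from genes the lists went the same way: 18.8% of members and 9.16% of peaks with CTCF lay over 100 kb from a gene in InsCBS5-10, and 12.9% of members and 8.83% of those with CTCF in wild type. The annotation used has gene bounds and starts but no exons, so exonic and intronic positions were not told apart. A summit inside a protein-coding gene and over 1 kb from a start was seen for 39.9% of members and 42.1% of peaks with CTCF in InsCBS5-10, and for 32.5% and 42.8% in wild type. Outside genes and over 1 kb from a start lay 56.4% of members and 52.5% of peaks with CTCF in InsCBS5-10, and 39.9% of members and 47.7% of peaks with CTCF in wild type.

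The promoter share of the wild-type members was also read by decile of fold enrichment. It was 30.2% in decile 1, 33.3% in decile 6, 27.3% in decile 7 and 18.2% in decile 8, against 14.6%, 13.8%, 11.4% and 8.38% with CTCF in the same deciles. Above that it dropped to 7.64% of 144 members in decile 9, against 5.63% with CTCF. In decile 10 it was 4.76% of 21 members, against 4.71% with CTCF. Among the strongest 18292 wild-type peaks, 184 of 1012 members (18.2%, 15.9% to 20.7%) were at promoters, against 1241 of 17280 (7.18%, 6.8% to 7.58%) with CTCF. Promoter members had a median fold enrichment of 3.34 and a width of 399 bp, and the 17416 distal members 3.3 and 319 bp. Of the promoter members of wild type, 17 of 6628 (0.256%, 0.149% to 0.41%) were called in InsCBS5-10, against 325 of 17416 distal members (1.87%, 1.67% to 2.08%). The InsCBS5-10 list held only 31 promoter members and 803 distal ones, which limits the promoter share more. These 2 shares therefore do not show whether promoter members were lost more often. In the other direction, 21 of 31 InsCBS5-10 promoter members (67.7%, 48.6% to 83.3%) were found in wild type, against 361 of 803 distal members (45%). For wild-type peaks with CTCF the shares were 31.3% at promoters and 56.1% elsewhere. List, library and genotype cannot be told apart in this difference.

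Wild-type members peaked just upstream of the start. In the 100 bp before it lay 63 of every 1000 members, against 15.5 of every 1000 peaks with CTCF. Within 200 bp of a start lay 4085 members (17%, 16.5% to 17.5%), against 1469 peaks with CTCF (4.71%, 4.48% to 4.95%). Over the summits within 1 kb of a start with known strand, the median position was -59 bp for 5429 members and -95 bp for 2202 peaks with CTCF. In InsCBS5-10 the 100 bp before the start held 2 members (2.4 of every 1000) and 100 peaks with CTCF (5.73 of every 1000).

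**Figure D4:**
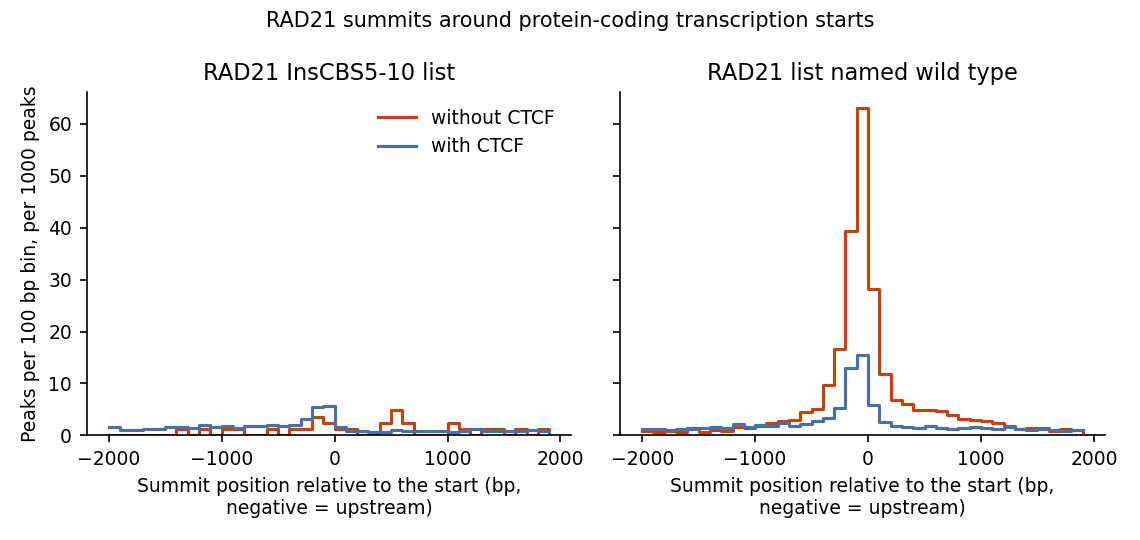
RAD21 summits per 100 bp bin and per 1000 peaks of the class (y axis) by position relative to protein-coding starts (x axis, bp, negative upstream), without CTCF and with CTCF, in the InsCBS5-10 list (left) and the list named wild type (right). In wild type the line without CTCF reaches 63 just before the start and the line with CTCF 15.5; in InsCBS5-10 both lines stay under 10.

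The 12 promoter members of highest fold enrichment in wild type lay at genes of varied kinds. Arrdc4, an alpha-arrestin, had 8.95-fold enrichment (−log10 q of 34.1) at chr7:68749012-68749685, 166 bp from its start and 34.1 kb from the nearest CTCF peak. Ddx17 had 7.8 with a −log10 q of 36.6 at chr15:79546318-79547245, and Ddost had 7.54 at chr4:138304460-138305065. The others were Trim12c (7.95), Mterf2 of mitochondrial transcription (7.49), the Mediator subunit Med30 (7.45), Mief1 of mitochondrial division (7.4), Gm45871 (7.33), Zcchc17 (7.31), the mitotic kinase Aurka (7.26), Whamm of actin nucleation (7.03) and Fam210b (7). Gm45871 lies on chromosome 18, where either gene end stood in for the start. None of these 12 peaks overlapped a RAD21 peak of InsCBS5-10. Away from starts, the highest gene-linked members were inside Nrros, a regulator of TGF-beta activation (9.5), Dtd1, a D-aminoacyl-tRNA deacylase (8.91), Ica1l (8.52), the potassium-channel partner Kcnip4 (8.46), the mitochondrial leucyl-tRNA synthetase Lars2 (8.38), Ralgapa2 (8.33), Agap1 (8.22), the transcription factor Sox13 (8.15) and the ubiquitin-ligase adaptor Klhl22 (7.99). Those at Ica1l, Kcnip4, Ralgapa2, Agap1 and Klhl22 were also in InsCBS5-10, at 5.68, 3.99, 5.08, 7.02 and 4. Those at Nrros, Dtd1, Lars2 and Sox13 were not.

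Of the promoters called without CTCF in both lists, that of Paqr8, a membrane progestin receptor, had the highest fold enrichment in InsCBS5-10 (5.76, and 5.31 in wild type), followed by Poc1a, a centriole protein (5.67 and 6.59 in the same order). Galr1, a galanin receptor, had 4.54 and 4.49, Spata3 had 4.37 and 3.65, and Hps5, a subunit of a lysosome-biogenesis complex, had 4.04 and 4.14. Galr1 lies on chromosome 18, where either gene end stood in for the start. The other members of this group had 3.08 (Ube2t) to 3.68 (Zfp866) in InsCBS5-10. Among them, Ndufb5 had 3.31 in InsCBS5-10 and 6.38 in wild type, and Rbl1, the p107 pocket protein of the cell cycle, had 3.43 and 5.41.

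Motif letters were counted in the 300-base promoters whose window held a wild-type summit: 3691 without CTCF, 1215 with CTCF and 18523 promoters in all. The CTCF core AGGNGGC was in 37.7% of windows without CTCF, 56.8% with CTCF and 33.7% of all. ETS letters CCGGAAG were in 23.2% without, 18.9% with and 11.9% of all. SP/KLF letters GGGCGG were in 70.2%, 64.9% and 46.7% in that order, YY1 letters AAGATGGC in 5.77%, 4.12% and 2.99%, and NRF1 letters GCATGCGC in 6.45%, 5.51% and 3.55%. The octamer ATTTGCAT (1.73%, 1.73% and 1.75%), CDX letters TTTATNG (6.31%, 6.75% and 9.52%), GATA letters AGATAA (5.07%, 4.77% and 9.71%), LEF/TCF letters CTTTGAA (3.12%, 3.37% and 4.43%), T-box letters AGGTGTGA (0.948%, 0.576% and 1.19%), REST letters GGACAGCGC (0.921%, 0.823% and 0.556%) and the B box GTTCGANNC (1.33%, 1.32% and 0.912%) were rare or no more common than in all promoters. Letters of the CTCF core and SP/KLF can share bases. Base composition moved with these counts: median GC was 61.3% without CTCF, 62% with CTCF and 56.7% over all promoters, and CpG observed over expected was 0.791, 0.765 and 0.577; its part in the motif counts was not tested. In InsCBS5-10 only 9 such windows had a member, and 6 of them held the CTCF core. Windows of divergent genes can overlap, as at Ndufb5 and Mrpl47 and at Hps5 and Gtf2h1, so windows are not all separate sites.

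Genes were then read by lists. Within 5 kb of a CTCF-free summit lay 419 of 19052 protein-coding genes in InsCBS5-10 (2.20%), 10331 in wild type (54.2%) and 181 at sites called in both (0.950%). The InsCBS5-10 count was 1415 genes where the InsCBS5-10 CTCF list alone defined members, 756 where only CTCF peaks at −log10 q 5 and above counted, and 72 for RAD21 peaks at −log10 q 5 and above. The wild-type count was 5286 for such RAD21 peaks and 596 in the strongest 18292. A CTCF-free summit within 1 kb of a start was called in wild type for 6654 genes (34.9%), and one with CTCF for 3091 (16.2%). Of the 31 genes of the Hox clusters A, C and D, which pattern the body axis, 17 (54.8%) had a wild-type member within 5 kb, and 0 had one in InsCBS5-10; 23 (74.2%) had a wild-type summit with CTCF. Members were unevenly spread over the clusters: Hoxd10 to Hoxd13 and Hoxa7 to Hoxa13 had none, Hoxc13 had 2, and Evx1, beyond Hoxa13, had 3. Hoxa3 had 7 and Hoxd3 had 6, but the bounds of Hoxa3 span Hoxa4 to Hoxa6 and those of Hoxd3 span Hoxd4. A member can thus count for several genes. The strongest counted for Hoxa3, at 4.38, lay inside Hoxa4, 832 bp from the Hoxa4 start and 22196 bp from that of Hoxa3. The strongest for Hoxd3, at 4.32, lay 22696 bp from its start. A member at chr15:103035261-103035670, 5.45-fold with a −log10 q of 30.7, lay inside Hoxc4.

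The counts of the developmental lists can be read beside the shares of all genes, 54.2% within 5 kb and 34.9% at the start; no difference from them was tested. Of 20 tailbud and axial progenitor genes, 16 (80%) had a wild-type member within 5 kb and 9 (45%) at the start. T, the Brachyury factor of the early mesoderm, had 1 at 4.13, 288 bp from its start and no RAD21 peak with CTCF within 5 kb. Tbx6, which sets paraxial mesoderm apart from neural tissue, had 1 at 4.38, Cdx2 had 2, the stronger at 4.06, and the Wnt target Sp5 had 2, the stronger at 3.25 and 75 bp from its start. Msgn1, Cdx1, Cyp26a1 and Eomes had none. Of 20 somite and paraxial mesoderm genes, 16 (80%) had one within 5 kb and 10 (50%) at the start, with the strongest at Pax3 (6.3), Notch1 (4.26) and Meox2 (3.84, 13 bp from its start). For Wnt, Fgf, Bmp and Notch response genes the count was 14 of 19 (73.7%), with Lgr5 at 4.52 and Dusp4 at 4.12, and for immediate early and Myc genes 13 of 18 (72.2%).

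The other developmental lists, beside 54.2% of all genes, had a wild-type member within 5 kb for 12 of 25 pluripotency genes (48%), 8 of 18 endoderm, heart and vessel genes (44.4%) and 8 of 19 neural tube genes (42.1%). Of 18 genes of cohesin and its regulators, 11 (61.1%) had a wild-type member, among them Rec8, the meiotic kleisin, with 6.38 at 189 bp from its start, and Esco2, an acetyltransferase of cohesin, with 3.37 at 3 bp. Rad21 itself had 1 at 2.86, and Ctcf and Smc3 had none. In InsCBS5-10 these lists held 1 member near Nkx6-2 and 1 in Ctcfl (2.98-fold), a germline paralog of CTCF. Since the lists are small and their genes were picked with earlier results known, the shares describe these genes only.

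**Figure D5:**
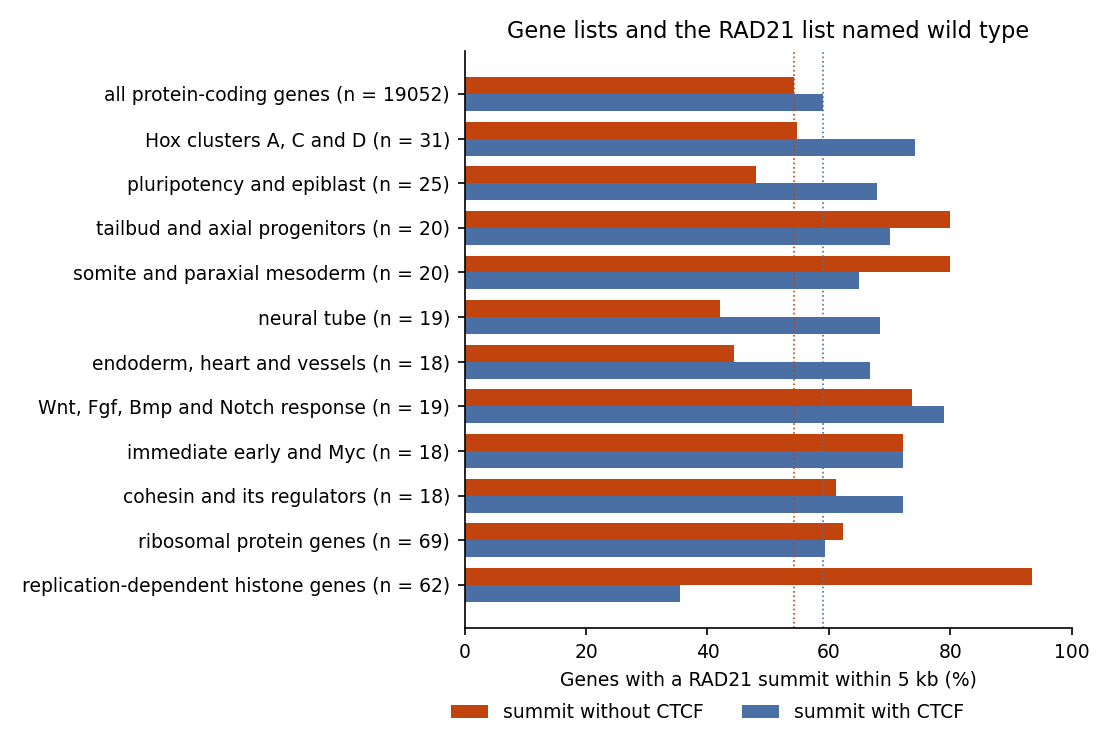
Percentage of genes of each list (rows, with the number measured) that have a summit of the RAD21 list named wild type within 5 kb, without CTCF (upper bar) and with CTCF (lower bar); dotted lines mark all protein-coding genes, at 54.2% and 59%. Replication-dependent histone genes stand highest without CTCF, at 93.5%, and lowest with CTCF, at 35.5%.

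Replication-dependent histone genes had members most often among the 11 lists in wild type. Of 62 such genes, whose transcripts are made in S phase and end in a stem-loop in place of a poly(A) tail, 58 (93.5%) had a wild-type member within 5 kb and 46 (74.2%) at the start, against 22 (35.5%) and 6 (9.68%) for summits with CTCF. H4c11, H4c3, H2bc1 and H2ac1 had none. Of the 58 genes, 33 had a member with a −log10 q of 5 or more, and 2 had one among the strongest 18292 peaks. One summit often served a divergent pair: the peak at chr13:23683873-23684531 (4.64-fold) lay 76 bp from the start of H2ac6 and 164 bp from that of H2bc4. By contrast, the peak at chr13:21721641-21722223 (4.34-fold) lay 146 bp from the start of H2bc14 but 4270 bp from that of H3c10. At H3c2 a peak was called without CTCF in both lists, at chr13:23751905-23752083 with 3.38 in InsCBS5-10 and at chr13:23751857-23752524 with 2.83 in wild type. Histone genes of the same family are similar copies, and how reads of such copies were placed is not stated. Also, 1 site counts for several genes. Ribosomal protein genes had members at 43 of 69 (62.3%) within 5 kb and 35 (50.7%) at the start, against 41 (59.4%) and 21 (30.4%) with CTCF, and Rps27l had a member of 4.84. Over all protein-coding genes the shares were 54.2% within 5 kb and 34.9% at the start without CTCF, and 59% and 16.2% with CTCF. At ribosomal starts the shares thus lay above those of all genes in both classes, and no difference was tested.

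Noncoding genes had members too. For noncoding genes a summit counted anywhere inside the gene or within 1 kb of either end. Of 339 tRNA genes, 151 (44.5%) had such a CTCF-free summit in wild type and 70 (20.6%) one with CTCF. The protein-coding shares, 34.9% without and 16.2% with CTCF, count only summits within 1 kb of a start, so they are not a like measure. For 60 rRNA genes of the annotation the counts were 11 (18.3%) and 2 (3.33%). Of these genes, 39 lie in 1 run of members on chromosome 8, given below, so the 11 are not 11 separate loci. Of 868 snRNA genes 34 (3.92%) had one without CTCF and 35 (4.03%) with CTCF, and of 11656 lncRNA genes 2675 (22.9%) without and 3007 (25.8%) with. In InsCBS5-10 the tRNA counts were 2 without and 17 with CTCF. How reads of repeated genes were placed is not stated in the labels, and its part in these counts was not tested.

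Some members of wild type formed runs along chromosomes. With neighbours linked up to 20 kb apart, 12318 of 16866 groups in wild type were single peaks. There were 250 runs of 5 or more members, which held 1538 of the 24044 peaks. The shorter InsCBS5-10 list had 0 such runs, and its longest had 3. Runs of peaks with CTCF were not counted, so runs are not shown to be particular to members. The longest run had 30 members over 164 kb at chr6:114497340-114660963, all away from promoters and with a median fold enrichment of 2.75, around Atg7, an autophagy enzyme. The next had 21 members at chr13:23492014-23592275, a histone cluster with 14 tRNA genes, with 11 members at promoters and 8 within 1 kb of a tRNA gene. A second histone cluster, at chr3:96197431-96285132, had 13, with 11 at promoters. At chr15:103024231-103135070, from Hoxc4 outwards, 13 members lay with none at a promoter. At chr8:123543831-123611834, 11 of 12 members lay within 1 kb of an rRNA gene, among 39 such genes. At chr13:21881839-21940526, 9 of 9 members lay within 1 kb of a tRNA gene.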

How the data were processed

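The 5 peak lists of mouse gastruloids at 96 h were CTCF in InsCBS5-10, DelCBS7-10 and wild type, RAD21 in InsCBS5-10, and a RAD21 list without a sample record. Per the submitters' processing notes, the authors used cutadapt 4.1 and MACS2 2.2.7.1 with mm10; the peak names show an edited chromosome 11. The aligner, mapping filter, control and caller options are not stated in the labels or notes. Fold enrichment, as deposited, is a ratio of summit signal to local background within a list, and the deposited −log10 q has a minimum of 1.30 in each list, a q of 0.05. These are the authors' values, used to describe, rank or filter peaks. The deposited positions (start, end, summit offset) were written 1-based.

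Rows with equal intervals were collapsed to the summit of highest −log10 q. Peaks on chromosomes 1 to 19 without 11 were kept. A peak was without CTCF where it overlapped none of the 3 CTCF lists by 1 bp. Gene bounds came from RefSeq GRCm38.p6; 15185 of 19052 protein-coding genes (79.7%) had starts in the promoter table, and both gene ends stood in for the rest, chromosome 18 included. Distances are from the RAD21 summit. Medians and shares were computed with Python 3.11.15, pandas 2.3.3, numpy 2.4.6 and scipy 1.17.1, after a check on simulated lists. With 1 list per group no test was made. Named genes were the 10 highest CTCF-free peaks by fold enrichment within 5 kb of a protein-coding gene in each RAD21 list, the 10 highest in both, list genes with peaks in both, 3 far from genes and 3 widest; the promoter peaks, runs and list genes named besides were picked after their values were seen. The members and gene lists were chosen with earlier results of these data known. Alternatives changed the overlap rule, the CTCF lists, both peak thresholds, the chromosomes, the list length and the promoter distance.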

Additional observations from a re-analysis of the deposited data

Results flagged for a closer look

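Promoter position had opposite signs in the 2 RAD21 lists; the difference between the lists was not tested. The share of CTCF-free peaks with a summit within 1 kb of a protein-coding start, minus that of peaks with CTCF, was -1.65 percentage points in InsCBS5-10 (-2.88 to -0.097) and 18 points in wild type (17.4 to 18.7). Within 5 kb of a start it was -6.63 points in InsCBS5-10 (-8.74 to -4.25) and 13.4 points in wild type (12.7 to 14.2). The median distance to a start, without minus with CTCF, was 18560 bp in InsCBS5-10 and -2866 bp in wild type. The median distance to a protein-coding gene differed by 4907 bp in InsCBS5-10 and by -98 bp in wild type. The InsCBS5-10 list holds 18292 peaks and the wild-type list 55240, and the wild-type list has no sample record, so genotype and library cannot be told apart. In the 18292 strongest wild-type peaks the promoter difference was 11 points.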

How the results depend on the processing

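Of 112 recomputed values, 51 stayed within the 95% interval of the reported value or within 1.5 times the reported count, 60 moved and 1 reversed. The causes were not tested. With no CTCF peak allowed within 500 bp, the CTCF-free share was 3.95% in InsCBS5-10 and 41.7% in wild type, the median fold enrichment 3.79 in InsCBS5-10 and 3.33 in wild type, and the promoter difference in wild type 16.8 points. With the summit required in a CTCF interval, the share was 5.51% in InsCBS5-10 and 46.3% in wild type, the wild-type members found in InsCBS5-10 were 1.76%, the wild-type width 343 bp and the promoter difference 18.9 points. With CTCF peaks of −log10 q 5 or more, the share was 8.14% in InsCBS5-10 and 49.7% in wild type, recovery 55.8% of InsCBS5-10 members and 2.85% of wild-type members, fold enrichment 3.82 and 3.37, width 221 bp and 345 bp, the wild-type promoter share 25.7% with a difference of 16.5 points, and 756 genes lay near an InsCBS5-10 member. With the CTCF list of the same genotype alone, the share was 14.9% in InsCBS5-10 and 45.8% in wild type, recovery 74.4% and 1.8%, fold enrichment 4.37 and 3.33, InsCBS5-10 width 237 bp, promoter shares 5.48% and 26.8%, and 1415 genes lay near an InsCBS5-10 member; the promoter difference of InsCBS5-10 turned to 0.226 points, so its sign rests on the choice of CTCF lists. With RAD21 peaks of −log10 q 5 or more, the share was 1.09% in InsCBS5-10 and 23.6% in wild type, recovery of InsCBS5-10 members 77.2%, fold enrichment 5.36 and 4.29, width 253 bp and 493 bp, promoter shares 2.53% and 33.9% with a wild-type difference of 24.6 points, genes 72 and 5286, and histone genes 33. With chromosomes X and Y added, the wild-type fold enrichment was 3.33 and no other value moved. In the strongest wild-type peaks, as many as InsCBS5-10 had, the share was 5.53%, InsCBS5-10 members found there 20.3%, fold enrichment 5.93, width 664 bp, promoter share 18.2% with a difference of 11 points, genes 596 and histone genes 2. With a promoter distance of 5 kb, shares were 10.9% in InsCBS5-10 and 35.5% in wild type and the differences -6.63 and 13.4 points. With starts of the promoter table alone and chromosome 18 left out, an alternative chosen after seeing the data, promoter shares were 2.49% in InsCBS5-10 and 23.6% in wild type, and the wild-type difference 16.2 points. All alternatives on promoter differences and gene counts were likewise chosen after seeing the data. None of the 53 named peaks had a CTCF peak within 500 bp; the other rules for CTCF could not have changed their class. Of them, 38 had a −log10 q of 5 or more. No paired analysis was possible because each group has 1 list and no replicate number. Depth and read placement are unknown, so calls near the q threshold and in repeated genes are the least certain.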
